A study of Homo sapiens with 6 samples.

Results

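The EGFR family joins receptor tyrosine kinases of the ERBB group to the growth factors that bind them. Here it is described through 9 genes, chosen by name: the receptors EGFR, ERBB2 and ERBB3 and the ligands TGFA, AREG, EREG, HBEGF, BTC and NRG1. They are 9 of the 60708 genes in the table of counts, each matched by its symbol, and all 9 were among the 17401 genes that reached 10 reads in some sample and were tested.

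RNA-seq was performed on Caki-1, an established human line of clear cell renal carcinoma, in 3 samples of VC cells and 3 samples of VHL-KO cells. VC cells were infected with lenti-CRISPR vector only and are of WT genotype, so their own VHL gene is unedited. VHL-KO cells were made by lentiviral CRISPR/Cas9 with an sgRNA against VHL and selected with puromycin, and are a clonal line picked by immunoblot, so that the effect of the edit and of the clone cannot be told apart, and which sgRNA made it is not stated. In order of their replicate numbers, the VC libraries had 31789923, 28463579 and 34881739 counts and the VHL-KO libraries 29139722, 22805385 and 22628246. Nothing states that the replicates are separate cultures, so the p-values measure only the spread between these samples, which may be technical.

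A ligand of the family is made as a membrane protein, released by a metalloprotease, and bound by a receptor that then pairs with another and signals through RAS and MAP kinases, PI3 kinase and STAT3. ERBB2 binds no ligand and ERBB3 has little kinase activity, so both act in pairs with other receptors. In clear cell renal carcinoma, where VHL is often inactivated and HIF proteins accumulate, TGFα and EGFR are known as an autocrine growth loop, and setting VHL-KO beside VC cells shows how each gene of the family was expressed on either side of the edit.

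VHL, the edited gene, encodes the substrate receptor of the ubiquitin ligase that degrades HIFα. It had 1454, 1124 and 1522 counts in VC cells against 929, 657 and 650 counts in VHL-KO cells. After TMM normalization this was 40.2 ± 2.38 and 31.9 ± 2.49 CPM (counts scaled to a library of 1e6; mean ± SD of 3 samples), a log2 fold change of -0.33 (standard error [SE] 0.11, adjusted p = 0.0109 in the edgeR quasi-likelihood test, adjusted by Benjamini-Hochberg). The 2 groups did not overlap, but the call was lost without VC replicate 1 (adjusted p = 0.0862), without VHL-KO replicate 2 (0.0621), with upper quartile factors (0.0905) and with offsets for GC content and length (0.142), with values from 0.000293 to 0.142 over 14 alternatives. VHL had a log2 fold change of -0.15 with the offsets, and -0.53 under library size alone. Since an edit of the coding sequence need not remove the mRNA, and 23.5% of the exonic bases of VHL overlap a gene on the opposite strand, this level is a weak check of the label.

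Of 8 known HIF target genes, 7 were higher and 1 was lower in VHL-KO cells, beside 28.5% and 31.2% of all tested genes. NDRG1, a stress-responsive gene, had 413, 331 and 445 counts in VC against 19464, 16703 and 16656 counts in VHL-KO cells. CA9, which encodes carbonic anhydrase IX, had 0, 0 and 2 counts in VC against 288, 247 and 233 in VHL-KO cells, at least 124-fold higher when VC cells are set at a floor of 3 counts per library, and 35.7% of its exonic bases overlap a gene on the opposite strand. The log2 fold changes of the other rising targets were 3.55 for ADM, 2.48 for VEGFA, 1.23 for BNIP3, 1.10 for PDK1 and 0.70 for SLC2A1, while EGLN3 fell by 1.26. The median over the 8 genes was 1.86, against -0.01 over all tested genes, and was the same with CA9 at its bound.

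Among markers of renal epithelium, PAX8 had 15025, 13630 and 14580 counts in VC against 16327, 12971 and 13414 counts in VHL-KO cells, with 22.4% of its exonic bases overlapped on the opposite strand, and KRT8 and KRT18 were also abundant in every sample. PAX8, KRT8 and KRT18 were higher in VHL-KO cells, and EPCAM was low, at 1.33 ± 0.299 CPM in VC and 0.491 ± 0.263 CPM in VHL-KO cells (mean ± SD of 3 samples). Of 8 markers of leukocytes, endothelium, fibroblasts and pericytes, CD3E had 0 counts in every sample, and PTPRC, DCN, CD68 and VWF had at most 5 counts in any sample. For CD68, 81.6% of the exonic bases overlap other genes on the same strand, and how such reads were counted is not stated. Their summed level was 43.4, 47.4 and 37.2 CPM in VC and 30.6, 27.7 and 26.1 CPM in VHL-KO cells, most of it COL1A1. The other 2 genes that reached 10 reads in some sample were PDGFRB and PECAM1. PDGFRB and COL1A1 were lower in VHL-KO cells. PECAM1 had 1, 5 and 0 counts in VC against 14, 7 and 9 in VHL-KO cells. It reached 10 reads only in VHL-KO replicate 1, so its call is not read as a change. In bulk RNA, fewer cells of a type and less RNA per cell cannot be told apart.

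Of the 9 family genes, 4 were called higher and 4 lower in VHL-KO cells at an adjusted p under 0.05, and BTC was not called. The 8 calls of 9 stand beside 59.7% of all tested genes, the 4 higher beside 28.5% and the 4 lower beside 31.2%. At 2-fold or more, 5 of 9 were called, beside 26.2% of all genes, and the groups did not overlap for 8 of 9, beside 64.7%. In a comparison where most genes were called, the share of called members is not by itself a result about the family, and the results lie in which members moved, how far and in which direction.

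**Figure D1:**
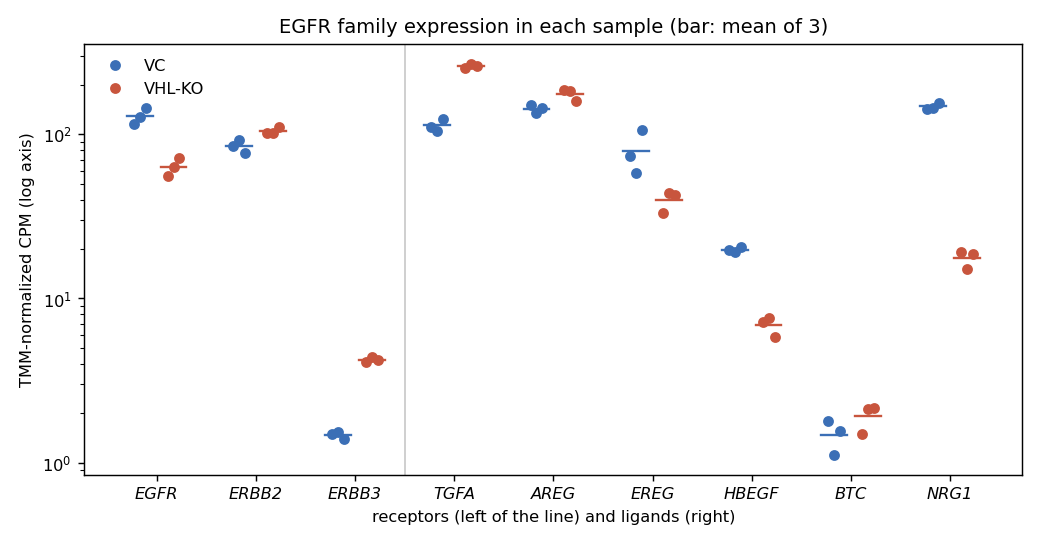
TMM-normalized CPM (log axis) of the 9 genes in each of the 3 VC (blue) and 3 VHL-KO (red) samples, with a bar at each mean. The groups are apart for every gene except BTC, and NRG1 has the widest gap, from 148 to 17.6 CPM.

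The upstream sequence is shown for 5 members, the receptor EGFR and the ligands TGFA, AREG, EREG and HBEGF, which include the neighbouring ligand genes that moved in opposite directions. The set of RefSeq entries on GRCh38.p14 used here matched 7 of the 9 members, with 9 start sites, and held none for ERBB3 and NRG1. The window is the 250 bases before the first listed start, 5′ to 3′ on the gene's own strand, at chr7:55018767-55019016 (plus strand) for EGFR, chr4:74444886-74445135 (plus) for AREG, chr4:74364895-74365144 (plus) for EREG and chr5:140346604-140346853 (minus) for HBEGF. For TGFA only the 103 bases of the window outside annotated exons are given, chr2:70553974-70554076 (minus), which lie before the RefSeq start but inside the longer GENCODE span of the gene. Capitals mark matches, on either strand, to ACGTG or GCGTG, the core letters of the element that HIF binds, and to TGACGTCA, the cyclic AMP response element.
EGFR: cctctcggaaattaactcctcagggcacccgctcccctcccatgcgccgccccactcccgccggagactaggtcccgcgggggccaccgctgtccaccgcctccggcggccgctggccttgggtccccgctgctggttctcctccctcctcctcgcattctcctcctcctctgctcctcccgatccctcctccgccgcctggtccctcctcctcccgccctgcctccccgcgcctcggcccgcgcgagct
TGFA: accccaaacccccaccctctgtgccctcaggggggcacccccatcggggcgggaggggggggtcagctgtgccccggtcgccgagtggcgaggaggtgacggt
AREG: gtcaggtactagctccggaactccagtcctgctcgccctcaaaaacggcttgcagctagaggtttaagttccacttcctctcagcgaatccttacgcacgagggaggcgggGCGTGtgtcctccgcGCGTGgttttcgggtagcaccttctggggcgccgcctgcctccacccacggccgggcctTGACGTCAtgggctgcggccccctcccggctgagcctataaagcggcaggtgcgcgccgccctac
EREG: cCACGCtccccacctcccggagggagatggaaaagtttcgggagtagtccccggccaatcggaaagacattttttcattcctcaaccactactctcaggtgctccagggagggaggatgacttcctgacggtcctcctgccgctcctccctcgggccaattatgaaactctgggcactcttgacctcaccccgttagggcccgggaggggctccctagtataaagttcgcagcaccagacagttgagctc
HBEGF: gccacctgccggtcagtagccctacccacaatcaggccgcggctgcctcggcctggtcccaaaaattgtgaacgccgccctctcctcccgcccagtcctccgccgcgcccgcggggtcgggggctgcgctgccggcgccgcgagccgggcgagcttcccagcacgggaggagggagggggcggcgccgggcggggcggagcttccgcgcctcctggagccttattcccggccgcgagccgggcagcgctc

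The AREG window held GCGTG 2 times and TGACGTCA 1 time, with the matches starting between 139 and 65 bases before the start site, and the EREG window held GCGTG 1 time, read on the opposite strand, 249 bases before it. The first windows of EGFR, TGFA and HBEGF and the window of ERBB2 held none of the 3 motifs. The window at the other listed start of TGFA and that of BTC held GCGTG 1 time each. Annotated exons covered all 250 bases of the ERBB2 window and 192 bases of that other TGFA window. The TGFA match was not found in the part outside exons. Among 35114 windows of 250 bases over all genes, 32.2% held GCGTG, 18.5% held ACGTG, 43.2% held at least 1 of these and 1.65% held TGACGTCA. The windows of the 5 genes had a GC content of 73.6% for EGFR, 75.6% for TGFA, 65.2% for AREG, 58.0% for EREG and 76.4% for HBEGF. A match describes the letters only, and no binding was measured.

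EGFR, the receptor for TGFα, amphiregulin and other ligands, lies on chromosome 7 from 55019017 to 55211628 on the plus strand of GRCh38. It had 3956, 3785 and 5484 counts in VC against 1497, 1368 and 1521 counts in VHL-KO cells. All VHL-KO samples were below all VC samples. Normalized, the levels were 116, 127 and 144 CPM in VC and 56.0, 63.4 and 71.3 CPM in VHL-KO cells. EGFR fell by 1.02 on the log2 scale (SE 0.11, adjusted p = 1.03e-08 in the edgeR test), a level 2.03-fold lower, and the change lay between -1.22 and -0.89 over the 14 alternatives.

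ERBB2, the receptor without a ligand of its own, had 2880, 2739 and 2922 counts in VC against 2712, 2206 and 2356 counts in VHL-KO cells. The raw counts were lower in each VHL-KO sample, but these libraries were smaller. As CPM the order turned, with 84.3, 92.2 and 77.0 in VC and 102, 102 and 111 in VHL-KO cells, and the groups did not overlap. The log2 fold change was 0.31 (SE 0.10, adjusted p = 0.00713 in the edgeR test). It was 0.12 (adjusted p = 0.256) with library size alone and 0.13 (adjusted p = 0.0583) with offsets for GC content and length, within adjusted p-values of 0.000128 to 0.256 over the alternatives, so the call depended on the scaling. Of the exonic bases of ERBB2, 6.93% overlap PGAP3 or MIEN1 on the opposite strand, and whether the counting used strand is not stated.

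ERBB3, the receptor for neuregulins that signals through a partner, was expressed at a low level. It had 51, 46 and 53 counts in VC against 110, 95 and 90 counts in VHL-KO cells. Each VHL-KO sample was above each VC sample, in raw counts as well as in CPM, where the levels were 1.48 ± 0.0771 in VC and 4.25 ± 0.144 in VHL-KO cells (mean ± SD of 3 samples). The log2 fold change was 1.52 (SE 0.22, adjusted p = 1.90e-06 in the edgeR test), with a range of 1.33 to 1.63 over the alternatives. ERBB4, the remaining receptor of the family, had at most 5 counts in any sample and was not tested.

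Divided by the length of the canonical transcript, ERBB2 was the most abundant receptor in both groups and ERBB3 the least. EGFR held 38.4%, 38.5% and 46.0% of the summed CPM per kb of the 3 receptors in VC samples and 19.7%, 21.6% and 22.4% in VHL-KO samples. ERBB2 held 58.2 ± 4.30% in VC and 76.3 ± 1.28% in VHL-KO cells (mean ± SD of 3 samples). The ratio of EGFR to ERBB2 per length was 0.632, 0.636 and 0.863 in VC against 0.254, 0.285 and 0.297 in VHL-KO samples. The lowest VC ratio was thus above the highest VHL-KO ratio. A single scaling factor per library cannot change this ratio, but offsets for GC content and length can. With the offsets, the log2 fold change was -0.89 for EGFR and 0.13 for ERBB2. The sum over the 3 receptors was 31.9 ± 1.45 CPM per kb in VC and 30.2 ± 1.83 CPM per kb in VHL-KO cells (mean ± SD of 3 samples), and the samples of the groups overlapped. Scaled by library size alone they did not, at 34.0 ± 1.13 CPM per kb in VC and 28.2 ± 2.04 CPM per kb in VHL-KO cells.

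The order of the receptors rested on that length in VC cells. With the union of all exons, a length chosen after seeing the data, EGFR held 46.7%, 46.9% and 54.5% of the summed CPM per kb in VC samples and 25.7%, 27.9% and 28.8% in VHL-KO samples. ERBB2 then held 49.9 ± 4.39% in VC and 70.0 ± 1.53% in VHL-KO cells (mean ± SD of 3 samples), and EGFR was above ERBB2 in VC replicate 3. ERBB2 was first in all VHL-KO samples and ERBB3 last in all 6 with either length. By that length the receptor sums did not overlap, though only just, at 15.6 to 17.1 CPM per kb in VC and 13.7 to 15.5 CPM per kb in VHL-KO samples.

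TGFA, which encodes TGFα, a ligand of EGFR, lies on chromosome 2 from 70447284 to 70554193 on the minus strand. It had 3804, 3113 and 4723 counts in VC against 6749, 5816 and 5579 counts in VHL-KO cells. The VHL-KO samples were all higher, although their libraries were smaller. In CPM the levels were 111, 105 and 124 in VC and 253, 270 and 262 in VHL-KO cells. The log2 fold change was 1.20 (SE 0.09, adjusted p = 5.17e-11 in the edgeR test), 2.30-fold, with a range of 1.01 to 1.46 over the alternatives. The ratio of TGFA to EGFR per length was 2.31, 1.98 and 2.07 in VC against 10.8, 10.2 and 8.82 in VHL-KO samples, so ligand and receptor mRNA moved in opposite directions in all 3 VHL-KO samples.

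AREG, which encodes amphiregulin, EREG, which encodes epiregulin, and BTC, which encodes betacellulin, lie in a cluster on chromosome 4, and AREG and EREG are next to each other among tested protein-coding genes, with starts 80.0 kb apart. AREG had 5123, 4014 and 5521 counts in VC against 4953, 3945 and 3422 counts in VHL-KO cells. In CPM this was 150, 135 and 145 in VC and 185, 183 and 161 in VHL-KO cells, where the lowest VHL-KO sample was above the highest VC sample. The log2 fold change was 0.30 (SE 0.09, adjusted p = 0.00726 in the edgeR test), and it was 0.15 (adjusted p = 0.0250) with offsets for GC content and length and 0.10 (adjusted p = 0.318) with library size alone, within adjusted p-values of 0.000631 to 0.318 over the alternatives.

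EREG moved the other way. It had 2524, 1725 and 4012 counts in VC against 886, 942 and 915 counts in VHL-KO cells. The VC samples were widely spread, from 58.1 to 106 CPM, but all lay above the VHL-KO samples, at 33.2, 43.7 and 42.9 CPM. The transcript has a low GC content, 36.1%, and log2 fold changes followed GC content over all genes, with a median of -0.45 for genes from 35 to 40% GC and 0.48 for genes from 60 to 65%. EREG fell by 0.99 on the log2 scale (SE 0.15, adjusted p = 4.04e-06 in the edgeR test), and by 0.43 with offsets for GC content and length (adjusted p = 0.00130, among values of 6.36e-21 to 0.00151 over the alternatives), so more than 0.5 log2 units of the change went with GC content and length together. The ratio of AREG to EREG per length was 7.59, 8.70 and 5.15 in VC against 20.9, 15.7 and 14.0 in VHL-KO samples, without overlap.

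BTC was expressed at a low level, with 61, 33 and 59 counts in VC against 40, 46 and 46 counts in VHL-KO cells. The samples of the groups overlapped, at 1.48 ± 0.343 CPM in VC and 1.93 ± 0.374 CPM in VHL-KO cells (mean ± SD of 3 samples). The log2 fold change was 0.36 (95% interval -0.22 to 0.94, adjusted p = 0.273 in the edgeR test), so neither no change nor a change near 1.9-fold lay outside the interval. With offsets for GC content and length, for a transcript of 38.7% GC, it was 0.77 (adjusted p = 0.0173), the only alternative of 14 that called it, within adjusted p-values of 0.0173 to 0.624.

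HBEGF encodes heparin-binding EGF-like growth factor, a ligand of EGFR and ERBB4. It had 677, 570 and 777 counts in VC against 192, 163 and 124 counts in VHL-KO cells. The VC samples lay close together, at 19.8, 19.2 and 20.5 CPM, and well above the VHL-KO samples at 7.19, 7.55 and 5.82 CPM. HBEGF fell by 1.53 on the log2 scale (SE 0.14, adjusted p = 2.32e-09 in the edgeR test), 2.89-fold, and lay between -1.73 and -1.42 over the alternatives.

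NRG1, which encodes neuregulin 1, a ligand of ERBB3 and ERBB4, had the largest change of the 9 genes. It had 4881, 4311 and 5917 counts in VC against 510, 324 and 397 counts in VHL-KO cells. This was 143, 145 and 156 CPM in VC against 19.1, 15.0 and 18.6 CPM in VHL-KO cells, with each group closely spaced. NRG1 fell by 3.07 on the log2 scale (SE 0.11, adjusted p = 5.88e-17 in the edgeR test), 8.41-fold, and lay between -3.27 and -2.66 over the alternatives. Of the 17401 tested genes, 434 had a larger absolute change and 137 a lower log2 fold change. NRG1 mRNA thus fell while that of its receptor ERBB3 rose, from a level per length that in VC cells was 12.3 ± 0.577 CPM per kb for NRG1 and 0.263 ± 0.0137 CPM per kb for ERBB3 (mean ± SD of 3 samples).

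**Figure D2:**
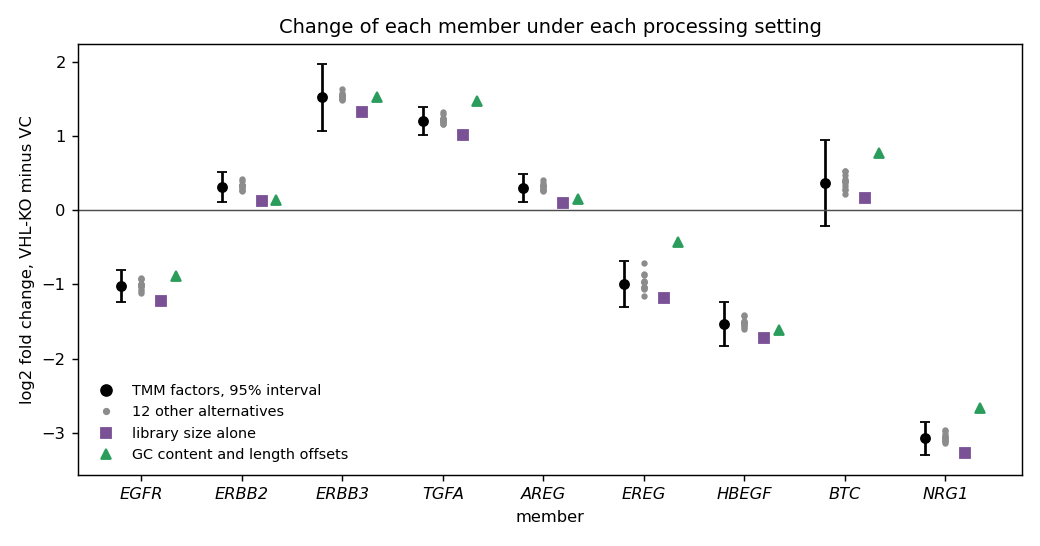
Log2 fold change (VHL-KO minus VC) of each gene in the edgeR fit with TMM factors, with its 95% interval (black), with library size alone (purple squares), with offsets for GC content and length (green triangles) and under the 12 other alternatives (grey). No gene changes sign, and EREG moves most with the offsets, to -0.43.

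Per length, AREG was the most abundant of the 9 genes and TGFA the next in both groups, at 116 ± 6.20 and 27.6 ± 2.43 CPM per kb in VC and 143 ± 11.1 and 63.5 ± 2.05 CPM per kb in VHL-KO cells (mean ± SD of 3 samples). In VC cells ERBB2, EREG, EGFR and NRG1 followed, from 18.5 to 12.3 CPM per kb, each overlapping the next in the order. HBEGF, at 8.41 CPM per kb, was apart from these, and BTC and ERBB3 were under 1 CPM per kb. In VHL-KO cells the order was ERBB2, EREG, EGFR, HBEGF, NRG1, ERBB3 and BTC, where EREG overlapped EGFR and ERBB3 overlapped BTC. With the union of all exons as the length, EREG came before ERBB2 in VC cells and BTC before ERBB3 in VHL-KO cells, and the other places were the same.

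The make-up of the ligand mRNA shifted toward TGFA. TGFA held 14.6%, 15.1% and 15.6% of the summed CPM per kb of the 6 ligands in VC samples and 27.4%, 28.7% and 30.6% in VHL-KO samples. AREG held 63.9 ± 2.49% in VC and 64.9 ± 2.23% in VHL-KO cells, with overlapping samples. EREG went from 9.32 ± 2.27% to 3.94 ± 0.657%, HBEGF from 4.62 ± 0.190% to 1.32 ± 0.114% and NRG1 from 6.79 ± 0.390% to 0.669 ± 0.106% (mean ± SD of 3 samples). The sum over the 6 ligands was 182 ± 12.9 CPM per kb in VC and 220 ± 10.9 CPM per kb in VHL-KO cells, with no overlap, and was made up mostly of AREG. Scaled by library size alone the samples overlapped, at 195 ± 17.8 CPM per kb in VC and 206 ± 10.2 CPM per kb in VHL-KO cells.

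**Figure D3:**
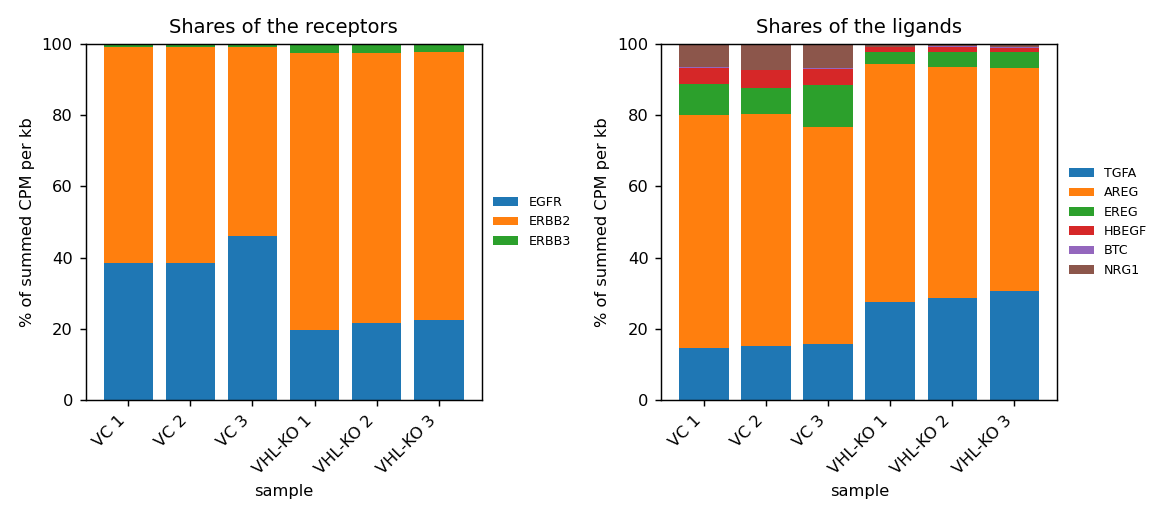
Share of each receptor (left) and each ligand (right) in the summed CPM per kb of its class, as stacked bars for each sample. The EGFR share is smaller in each VHL-KO sample (at most 22.4%) than in each VC sample (at least 38.4%), and the TGFA share is larger (at least 27.4% against at most 15.6%).

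Of the other 6 genes of the family, 2 had enough reads to be tested. NRG2, which encodes neuregulin 2, had 37, 36 and 49 counts in VC against 104, 59 and 64 counts in VHL-KO cells, and its log2 fold change was 1.43 (SE 0.25, adjusted p = 2.89e-05 in the edgeR test). NRG2 therefore moved opposite to NRG1, at a level of 1.20 ± 0.105 CPM in VC and 3.21 ± 0.607 CPM in VHL-KO cells (mean ± SD of 3 samples). EGF, the founding ligand, had between 6 and 16 counts in each sample and was not called (log2 fold change 0.07, 95% interval -1.15 to 1.28), which at this depth leaves any direction within the interval. EPGN, NRG3 and NRG4 had at most 2 counts in any sample, under the floor of 3 counts that a count of 0 allows, which was 0.0790 CPM in the deepest and 0.141 CPM in the shallowest library and covers counting error only.

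Genes that release the ligands or help to do so were mixed. The list held 12 genes, among them the protease inhibitor TIMP3, and 11 were tested. In VHL-KO cells 5 were higher and 4 lower, beside 28.5% and 31.2% of all tested genes, with a median log2 fold change of 0.27. With offsets for GC content and length, 7 were higher and 4 lower, with a median of 0.17. ADAM17, the main sheddase of TGFα, AREG, EREG and HBEGF, had 1376, 1113 and 1788 counts in VC against 1482, 1076 and 967 counts in VHL-KO cells. Its samples overlapped, at 37.5 to 47.1 CPM in VC and 45.4 to 55.5 CPM in VHL-KO cells. The log2 fold change was 0.27 (adjusted p = 0.0391 in the edgeR test), and the call was lost in 6 of 14 alternatives, among them without VC replicate 1 (0.117), VC replicate 2 (0.0722), and likewise VHL-KO replicate 1 (0.195) and 2 (0.0837), within adjusted p-values of 1.10e-07 to 0.585. With offsets for GC content and length it was 0.79, and 11.7% of its exonic bases overlap genes on the opposite strand. TIMP3, an inhibitor of these proteases, had 0 counts in every sample.

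RHBDF1 and RHBDF2, the iRhom partners that ADAM17 needs to mature, rose with log2 fold changes of 0.83 and 0.53, and ADAM15 rose by 0.54. With offsets for GC content and length these were 0.41, 0.16 and 0.17, still called. ADAM19, from 47.1 ± 2.02 to 11.1 ± 1.36 CPM (mean ± SD of 3 samples), had a log2 fold change of -2.08, and ADAM9 of -1.22, or -0.69 with the offsets. ADAM10, which sheds EGF and BTC, was called lower with a log2 fold change of -0.33 (adjusted p = 0.0199 in the edgeR test) and overlapping samples, but was called higher with the offsets, at 0.20 (adjusted p = 0.0274), and was not called with upper quartile factors (0.110), without VC replicate 3 (0.203) or without VHL-KO replicate 1 (0.132), within adjusted p-values of 0.000366 to 0.203.

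Downstream of the receptors, 3 of 26 adaptors and kinases were higher and 12 lower, a total of 15 called, beside 28.5%, 31.2% and 59.7% of all tested genes, with a median log2 fold change of -0.24. MAPK3, which encodes ERK1, had 1592, 1483 and 1528 counts in VC against 3036, 2301 and 2166 in VHL-KO cells. After normalization every VHL-KO sample was above every VC sample, with a log2 fold change of 1.24 (adjusted p = 1.85e-10 in the edgeR test), or 0.80 with offsets for GC content and length. PTPN11, which encodes the phosphatase SHP2 that carries receptor signals to RAS, went from 117 ± 18.2 to 35.1 ± 5.74 CPM (mean ± SD of 3 samples), a log2 fold change of -1.74. STAT3 and MAP2K2 rose, by 0.48 and 0.47, and PIK3CB, a catalytic subunit of PI3 kinase, had a log2 fold change of -0.85. With the offsets MAP2K2 was at 0.18 and PIK3CB at -0.39.

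Among 13 genes that restrain the receptors, 12 were tested, 2 were higher and 6 lower, beside 28.5% and 31.2% of all tested genes, with a median log2 fold change of -0.44, or -0.16 with offsets for GC content and length. ERRFI1, which encodes the feedback inhibitor MIG6, had 701, 584 and 981 counts in VC against 865, 767 and 771 counts in VHL-KO cells, which after normalization was 22.0 ± 3.35 and 34.7 ± 2.03 CPM (mean ± SD of 3 samples) with no overlap, a log2 fold change of 0.65 (adjusted p = 6.01e-05 in the edgeR test). CBL, the ubiquitin ligase that marks activated EGFR for breakdown, had a log2 fold change of -1.25, and its relative CBLB had a log2 fold change of 0.43, which was 0.90 with the offsets and was not called with library size alone (adjusted p = 0.173) or without VHL-KO replicate 1 (0.0503), within adjusted p-values of 9.92e-07 to 0.173. LRIG3 and LRIG1, membrane proteins of which LRIG1 promotes receptor breakdown, had log2 fold changes of -1.59 and -0.88, and 37.9% of the exonic bases of LRIG1 overlap a gene on the opposite strand.

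Of 13 genes for endocytosis and sorting of the receptors, 2 were higher and 7 lower, beside 28.5% and 31.2% of all tested genes, with a median log2 fold change of -0.37. RABEP1, which encodes the RAB5 effector rabaptin-5 that acts in the fusion of early endosomes, had 1450, 1149 and 1844 counts in VC against 689, 576 and 524 in VHL-KO cells, below VC in every sample, and a log2 fold change of -0.75 (adjusted p = 3.53e-06 in the edgeR test). Of its exonic bases, 53.6% overlap NUP88 on the opposite strand, so without knowing the strandedness its counts may include reads of that gene. EPS15, CLTC, the clathrin heavy chain, and STAM had log2 fold changes of -1.08, -0.85 and -0.82. With offsets for GC content and length, RABEP1, EPS15, CLTC and STAM were at -0.35, -0.56, -0.44 and -0.32, all still called. EPN1 and TSG101 rose by 0.62 and 0.30, the latter not called with library size alone (adjusted p = 0.347, within a range of 5.14e-05 to 0.347).

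**Figure D4:**
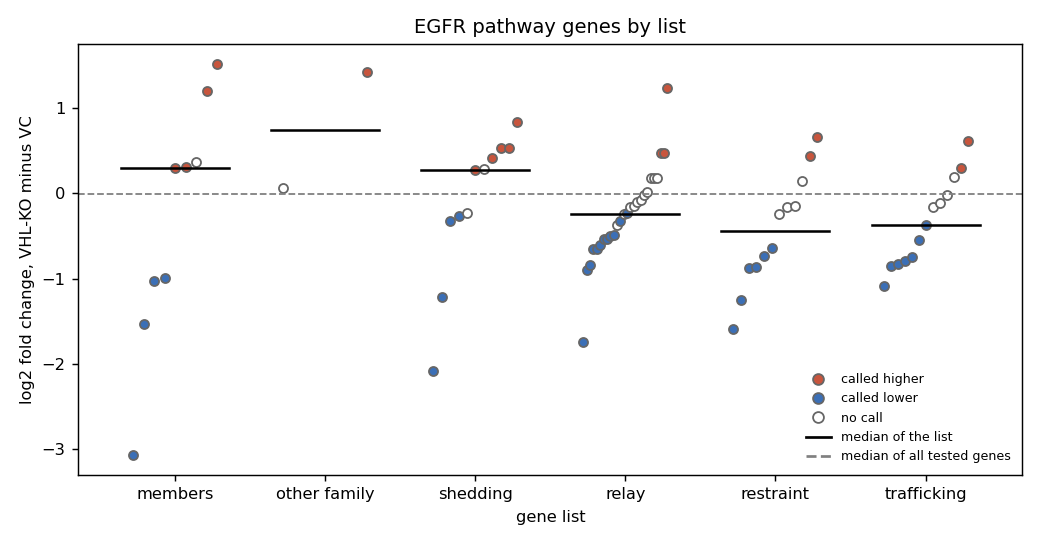
Log2 fold change (VHL-KO minus VC) of each tested gene in the family and in the lists of pathway genes, coloured by its call, with the median of each list (black) and of all tested genes (dashed, -0.01). The receptor relay, restraint and trafficking lists have medians of -0.24, -0.44 and -0.37, and each of these lists holds genes called in both directions. With offsets for GC content and length, not drawn here, their medians were -0.17, -0.16 and -0.27, against -0.02 over all tested genes.

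The genes next to the members were read out of the same fit. The 2 nearest tested protein-coding genes on each side of each member gave 28 genes after the members themselves were left out, of which 17 were called, 7 higher and 10 lower, near the 59.7%, 28.5% and 31.2% of all tested genes. Those changed at least 2-fold were SEC61G beside EGFR (log2 fold change 1.11), PGAP3 beside ERBB2 (1.83) and CYSTM1 and ANKHD1 beside HBEGF (1.06 and 1.34). SEC61G and EGFR, with starts 267 kb apart, moved in opposite directions. HBEGF moved opposite to CYSTM1 and ANKHD1 but in the same direction as PFDN1, its nearest neighbour on one side, which was called lower (log2 fold change -0.55). TGFA rose while 3 of its 4 neighbours fell, SNRPG, FAM136A and TEX261 (-0.76, -0.30 and -0.48), and NRG1 fell together with 3 of its 4, WRN, FUT10 and TTI2 (-0.99, -0.92 and -0.90). The other neighbour of NRG1, PURG, was expressed at under 1 CPM and had a log2 fold change of 1.24 without a call (adjusted p = 0.0550 in the edgeR test). PFDN1 and these 7 genes were named after their values were seen. FAM136A was not called with upper quartile factors (adjusted p = 0.105) or without VC replicate 1 (0.0536), within a range of 8.71e-05 to 0.105, and WRN was at -0.47 with offsets for GC content and length. The 3 genes beside NRG1 changed less than NRG1 itself, and copy number in either group was not tested.

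**Figure D5:**
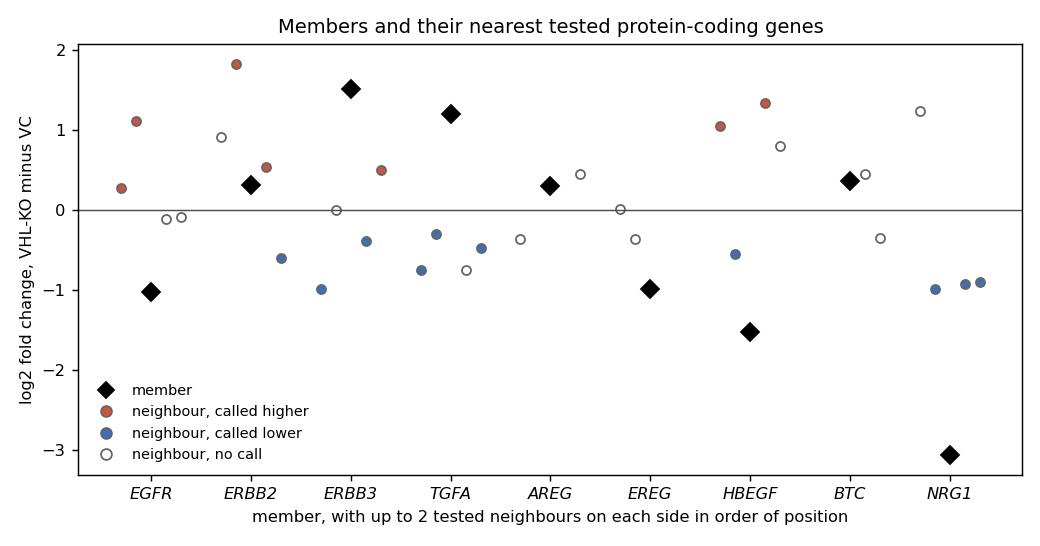
Log2 fold change (VHL-KO minus VC) of each member (diamond) and of the nearest tested protein-coding genes on each side (circles, in order of position, coloured by call). TGFA lies above all of its neighbours, and NRG1, at -3.07, is below its lowest neighbour at -0.99.

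The genes with the pattern most like that of EGFR were sought among 8216 protein-coding genes with a mean of at least 10 CPM, by the Euclidean distance of log2(CPM + 1) over the 6 samples, each gene centred on its own mean. They were RAD23B, EDRF1 and FZD7, at distances of 0.0934, 0.120 and 0.128, against a median distance of 1.19 over the genes compared. RAD23B, for example, had 155 CPM in VC and 72.6 CPM in VHL-KO cells on average. For TGFA they were FOXC1, SPP1, which encodes osteopontin, and GABARAPL1, at distances of 0.125, 0.131 and 0.134, against a median of 1.66. SPP1 rose from 500.5 to 1122 CPM, and FOXC1 from 7.56 to 18.5 CPM.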

How the data were processed

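RNA-seq counts of 6 Caki-1 samples were analysed, grouped by the genotype and replicate number in their labels. According to the study's methods, the authors trimmed reads with TrimGalore and Cutadapt, aligned them with STAR to GRCh38.p13, kept those with 1 location and deposited the raw count per gene from HTSeq. Tool versions, annotation release, strandedness and counting mode are not given in the sources used here.

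The 17401 genes that reached 10 reads in some sample were tested with edgeR 4.0.16 in R 4.3.3 (TMM factors, quasi-likelihood F test, two-sided, Benjamini-Hochberg over all of them, threshold 0.05). Standard errors are the absolute log2 fold change divided by the square root of F. CPM uses effective library sizes. Replicates differed by more than sampling noise (chi-square per degree of freedom 6.43 to 35.3). Positions, lengths and GC content were taken from GENCODE release 44 (GRCh38), which matched 17355 of the tested genes. The fit was tested on simulated data.

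The alternatives were DESeq2 1.42.0, its size factors in edgeR, upper quartile factors, library size alone, 2 other filters (1 read in any sample, 10 in every sample), each replicate left out, the replicate number as a block, and offsets computed per library for the GC content and length of the transcript (natural splines, 5 degrees of freedom). Biological change that goes with GC content is removed by the offsets too. Figures used matplotlib 3.10.9.

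The members and gene lists were chosen with earlier results of these data known. Named are VHL, the 9 members, 6 other family genes, 8 HIF targets, ADAM17, ERRFI1, RABEP1, genes among the 3 largest called rises and falls with a mean of at least 1 CPM in each pathway list, neighbours called at 2-fold or more, and the 3 genes most alike to EGFR and TGFA. Further neighbours of TGFA, HBEGF and NRG1 were named after their values were seen.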

Additional observations from a re-analysis of the deposited data

How the results depend on the processing

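The 9 members kept their direction under all 14 alternatives. EGFR, ERBB3, TGFA, EREG, HBEGF and NRG1 also kept their calls. With library size alone, 6 members were called and 2 were called higher, since ERBB2 and AREG were not. That scaling put the median of all genes at -0.20, upper quartile factors at 0.10 and TMM factors at -0.01. Relative to the median, ERBB2 was at 0.32 and AREG at 0.31 with library size alone, as with TMM factors. Of all calls, 47.7% were higher with TMM factors, 55.0% when upper quartile factors were used and 35.8% with library size alone.

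Over 60 tested genes, 50 kept direction and call under every alternative that tested them. The 60 were the genes chosen by these rules and SNRPG, FAM136A, TEX261, WRN, FUT10 and TTI2, named after their values were seen. PFDN1 and PURG were not among the 60. Of 838 values, 21 lost the call, 1 gained it and 4 turned. ADAM10 was at 0.20 with offsets for GC content and length. EGF was at -0.13 with library size alone, and between -0.19 and 0.28 when each replicate was left out. The offsets brought the medians of the GC ranges to between -0.05 and 0.01, and the cause of the trend was not tested. Shedding genes called higher went from 5 to 3 with library size alone or no filter beyond 1 read, and those called lower from 4 to 2 with upper quartile factors or without VHL-KO replicate 1. Relay genes called higher went from 3 to 5 with upper quartile factors or the offsets. Restraint genes called higher went from 2 to 1 with library size alone or without VHL-KO replicate 1, or to 3 with the offsets, and trafficking genes called higher from 2 to 1 with library size alone or to 4 with the offsets. With library size alone, the genes called lower went from 12 to 17 (relay), 6 to 9 (restraint) and 7 to 10 (trafficking). Relay genes called lower went to 9 with upper quartile factors, without VC replicate 3 or without VHL-KO replicate 1.

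With the replicate number as a block (replicate block), 10284 genes were called in place of 10394, and all 9 members had the same call. Samples share only a number: deviations of same-numbered samples correlated by 0.0627, -0.000449 and 0.0283 across genes, and not every sample correlated best with its own number. Depth limits the values of ERBB3, BTC, EGF and NRG2, which rest on at most 110 counts per sample.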
